A study of Caenorhabditis elegans and Caenorhabditis briggsae and Caenorhabditis remanei with 48 samples.

Results

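The genes described here are 34 C. elegans protein identifiers that the study selected on ribosome profiling data, as those with high weights on the second principal component of ribosome-protected fragment (RPF) abundance over all libraries of 4 nematode species. They are 34 of 23502 identifiers of C. elegans coding sequences present in the mRNA or the RPF table, and all 34 were measured in both. Of the 48 libraries in the series, 12 came from C. elegans, in 4 groups of 3 by state and assay. Whole populations of wild-type N2 larvae hatched without food and were starved for 24 h in liquid culture, which holds them in first larval stage (L1) arrest, here called diapause. Developing animals came from the other portion of each starved batch and had then been fed E. coli HB101 for 3 h. All groups therefore shared the starvation, and every level is a whole-animal average in which fewer cells of a type and less RNA per cell cannot be told apart.

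L1 arrest is a state in which a newly hatched worm, finding no food, halts growth and lives on stored reserves until feeding restarts development. The muscle and nervous system built in the embryo remain in use, and stored fat is a main fuel. Ribosome profiling sequences the short mRNA pieces that ribosomes shield from nuclease, so RPF signal follows both how much mRNA is present and how heavily it is translated. The ratio of RPF to mRNA signal is called translation efficiency (TE).

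The tables gave 1 mean normalized signal per state and assay, averaged over 3 libraries by the authors, and no value for single libraries. No test between the states and no standard deviation could therefore be computed, and each fold below is a ratio of 2 such means without an error. Summed over all coding sequences, mean signal was 13491955 in diapause and 14855548 in developing animals for mRNA, and 6960114 and 9451545 for RPF. Counts of single libraries were not analysed here, and no counting interval is given. For comparison, 12115 coding sequences were called well expressed, with a mean over both states of at least 50 in each assay, and all 34 members were among them. Signal was not divided by coding length, so a rank, percentile or share of signal given below reflects the length of a coding sequence as well as its abundance. A read counted for each isoform it matched, so a share is of the signal summed over identifiers and not of reads.

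The members are mostly muscle proteins, enzymes of energy metabolism, and secreted or membrane proteins, and most had more RPF and more mRNA signal in diapause than in developing animals. RPF signal was lower in developing animals for 30 of 34 members, against 49.5% of well-expressed coding sequences, and mRNA signal for 29, against 47.6%. By more than 2-fold, RPF signal was lower for 16 members (background 15.0%) and mRNA signal for 13 (background 9.58%). For 11 members it was lower by over 2-fold in both assays (background 8.36%). None was higher by over 2-fold in developing animals in either assay, where the backgrounds were 19.6% for RPF and 14.3% for mRNA. The median member had an RPF change of -0.84 and an mRNA change of -0.87 on the log2 scale (developing over diapause), beside medians of 0.01 and 0.04 over all well-expressed coding sequences. Because RPF abundance in these libraries chose the list, its RPF counts are a description only. The mRNA libraries were made from the same animals and are not independent of that choice.

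**Figure D1:**
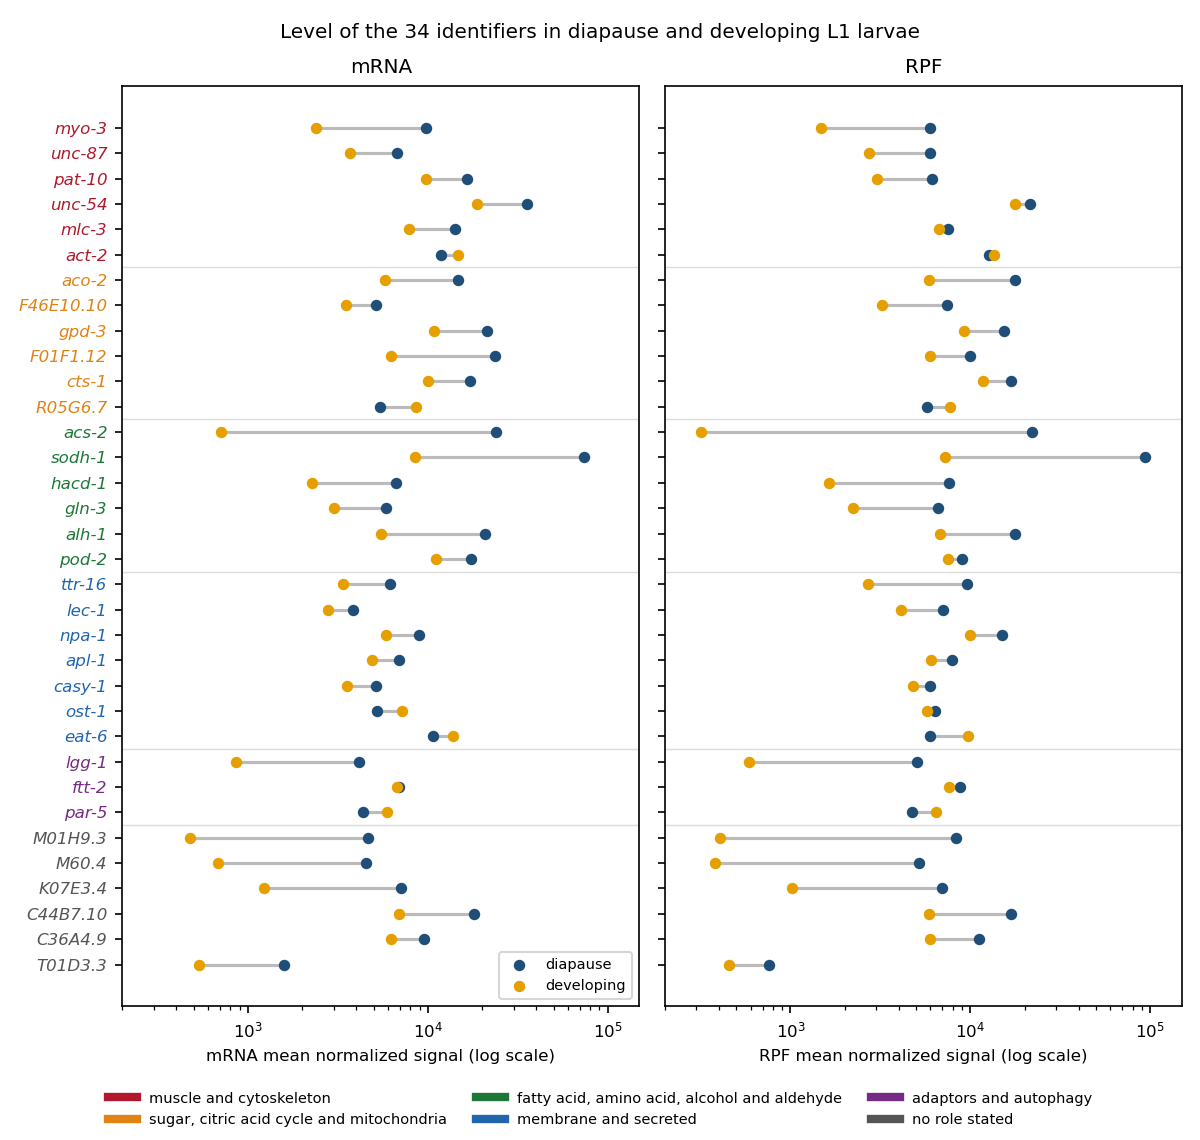
Mean normalized signal of the 34 identifiers in mRNA (left) and RPF (right) data on log axes, with 1 point per state, each the mean of 3 libraries, and gene names coloured by functional group. Points for developing animals lie left of those for diapause for 29 members in mRNA and 30 in RPF, with the widest gap for acs-2.

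The members made up 5.96% of summed RPF signal in diapause and 1.97% in developing animals, a 3.02-fold lower share. Their share of mRNA signal was 3.25% in diapause and 1.38% in developing animals, 2.36-fold lower. A large portion of this came from a single gene. sodh-1, an alcohol dehydrogenase gene, had the largest RPF signal of any C. elegans coding sequence in diapause and ranked 212 in developing animals. Alone it held 1.34% of RPF signal in diapause and 0.0766% in developing animals. Without it, the share of the other 33 members was 4.62% and 1.90%, which is 2.43-fold lower.

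**Figure D2:**
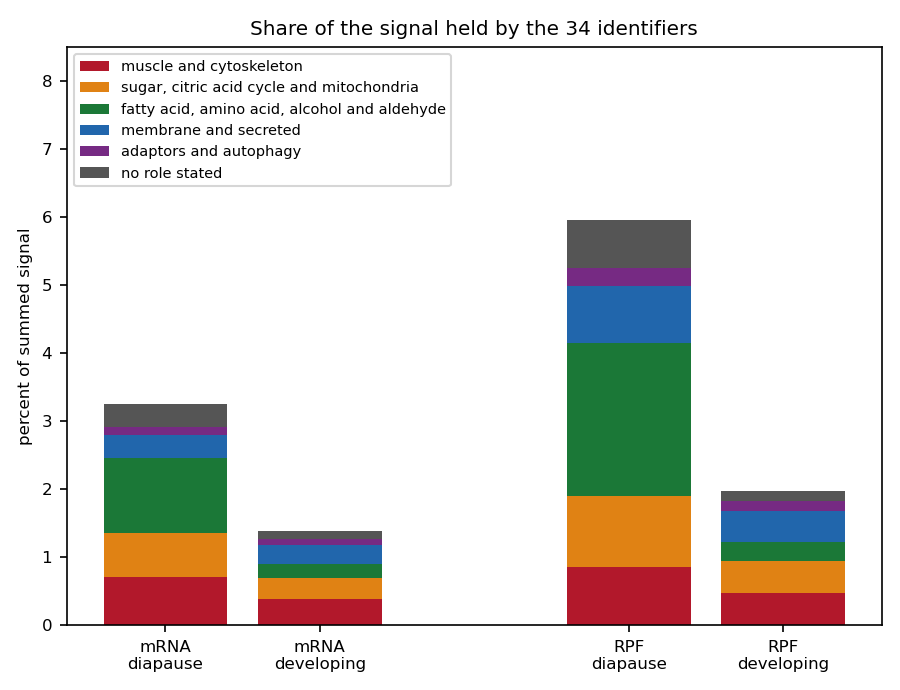
Percent of summed mean signal held by the 34 identifiers, stacked by functional group, for each assay and state, with no error available. The RPF bar is 5.96% high in diapause and 1.97% in developing animals. The part for fatty acid, amino acid, alcohol and aldehyde enzymes differs the most, from 2.25% to 0.273%. Within that part, sodh-1 alone holds 1.34% and 0.0766% of RPF signal.

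Genes of fatty acid, amino acid, alcohol and aldehyde metabolism differed most among the groups with a stated role. All 6 had lower mRNA and lower RPF signal in developing animals, 4 by over 2-fold in mRNA and 5 in RPF, with group medians of -1.75 and -1.90 log2. acs-2 encodes an acyl-CoA synthetase that activates fatty acids for oxidation in mitochondria and is known to be induced by fasting. In mRNA data acs-2 had a signal of 23906 in diapause and 709 in developing animals, 33.7-fold lower. In RPF data it had 22144 and 317, 69.9-fold lower, the largest difference of any member in either assay. For sodh-1, mRNA signal was 73914 in diapause and 8478 in developing animals (8.72-fold lower), and RPF signal was 93254 and 7236 (12.9-fold lower). hacd-1 encodes a hydroxyacyl-CoA dehydrogenase, an enzyme type of fatty acid oxidation. Its mRNA signal was 6692 and 2269 (2.95-fold lower in developing animals), and its RPF signal was 7610 and 1631 (4.67-fold lower).

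For the other enzymes of this group the RPF differences were smaller. gln-3, a glutamine synthetase gene, had an RPF signal of 6634 in diapause and 2235 in developing animals, 2.97-fold lower, with mRNA 1.94-fold lower. alh-1, an aldehyde dehydrogenase gene, differed less in RPF (17745 in diapause and 6820 in developing animals) than in mRNA (20858 and 5469, 3.81-fold lower). pod-2 encodes acetyl-CoA carboxylase, which commits carbon to fatty acid synthesis rather than to its breakdown, and it was the member of the group closest to equal between states. Its RPF signal was 8952 in diapause and 7545 in developing animals, 1.19-fold lower, and its mRNA signal was 17386 and 11091, 1.57-fold lower.

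Genes of sugar breakdown, the citric acid cycle and mitochondria had lower RPF signal in developing animals for 5 of 6 members, 2 of them by over 2-fold, and the same counts held for mRNA. aco-2, the mitochondrial aconitase gene, was 2.54-fold lower in mRNA, with a signal of 14713 in diapause and 5800 in developing animals. Its RPF signal was 17625 and 5913, 2.98-fold lower. F46E10.10, named mdh-1 (malate dehydrogenase) in the WBcel235 annotation, was 1.47-fold lower in mRNA and 2.28-fold lower in RPF. cts-1, the citrate synthase gene, had the smallest difference among the lower members of the group in RPF, 16736 in diapause and 11805 in developing animals, or 1.42-fold.

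F01F1.12, named aldo-2 in WBcel235 and encoding the glycolytic enzyme aldolase, had the widest gap between the assays of any member as deposited. Scaling to the summed signal lowers every TE change by 0.30 log2. Its gap is then narrower than that of M01H9.3, whose TE change was -1.07 as deposited. Its mRNA signal was 23689 in diapause and 6242 in developing animals, 3.80-fold lower, whereas its RPF signal was 9894 and 5943, only 1.66-fold lower. gpd-3, a glyceraldehyde-3-phosphate dehydrogenase gene, was 1.96-fold lower in mRNA and 1.67-fold lower in RPF. Closely similar gpd genes exist and reads with several genomic mappings had been removed, so the level of gpd-3 is uncertain. R05G6.7, named vdac-1 in WBcel235, encodes the voltage-dependent anion channel of the outer mitochondrial membrane and was the exception. It had an mRNA signal of 5462 in diapause and 8561 in developing animals, and its RPF signal was 5723 and 7707, higher in developing animals in both assays. The RPF difference turned to lower when each state was scaled to its summed signal, while the mRNA difference kept its direction.

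Of 6 muscle and cytoskeleton genes, 5 had lower mRNA and RPF signal in developing animals, and act-2 was higher in both assays as deposited. The 5, here called the sarcomere genes, are markers of the muscle that whole larvae contain. Their fold differences in mRNA were 1.69 to 4.09. myo-3 encodes a body wall myosin heavy chain found at the centre of thick filaments. The mRNA signal of myo-3 was 9737 in diapause and 2380 in developing animals, and its RPF signal was 5928 and 1471, about 4.09-fold and 4.03-fold lower. unc-54 encodes the major body wall myosin heavy chain. Its mRNA signal of 35775 in diapause was 1.89-fold that in developing animals (18900), whereas its RPF signal was 21561 and 17806, only 1.21-fold lower. mlc-3, a myosin light chain gene, had the same shape, with mRNA 1.80-fold lower and RPF signal of 7479 in diapause and 6700 in developing animals.

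For the thin filament genes pat-10 and unc-87 the order of the assays was opposite to that of unc-54 and mlc-3. The gaps were small, with TE changes of -0.27 and -0.25 log2, at percentiles 31.7 and 33.7 of well-expressed coding sequences. pat-10, which encodes troponin C of body wall muscle, had an mRNA signal of 16471 in diapause and 9753 in developing animals (1.69-fold lower) and an RPF signal of 6147 and 3012 (2.04-fold lower). unc-87, a gene for a protein that bundles actin filaments, was 1.83-fold lower in mRNA and 2.18-fold lower in RPF. act-2, an actin gene, had 12627 in diapause and 13450 in developing animals in RPF, and 11921 and 14654 in mRNA. The RPF difference of act-2 was higher in developing animals as deposited but lower under both scalings to summed signal. Other actin genes are nearly identical to act-2, so its share of reads is uncertain.

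Among 7 membrane and secreted proteins, differences were small apart from ttr-16. RPF signal was lower in developing animals for 6, and 1 was over 2-fold lower. In mRNA, 5 of the 7 were lower and none by over 2-fold. ttr-16 belongs to the transthyretin-like family of secreted proteins. Its mRNA signal was 6183 in diapause and 3371 in developing animals, 1.83-fold lower, and its RPF signal was 9524 and 2713, 3.51-fold lower. lec-1, a galectin gene, was 1.37-fold lower in mRNA and 1.71-fold lower in RPF. npa-1, whose product is a polyprotein cut into fatty acid binding units, was 1.52-fold lower in mRNA and 1.51-fold lower in RPF, with 15058 and 10001 in the latter.

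The others are neuronal, matrix and ion transport proteins. apl-1, the worm relative of the amyloid precursor protein gene, had RPF signal of 7935 in diapause and 6062 in developing animals, 1.31-fold lower, with mRNA 1.41-fold lower. casy-1, the calsyntenin gene, had 5998 and 4783, 1.25-fold lower, with mRNA 1.44-fold lower. ost-1 encodes SPARC, a protein of basement membranes, and its assays pointed in opposite directions. Its mRNA signal was 5193 in diapause and 7238 in developing animals, but its RPF signal was 6320 and 5712. eat-6, the gene for the catalytic subunit of the sodium pump, was the only member whose RPF signal stayed higher in developing animals under every scaling tried, with 5984 in diapause and 9675 in developing animals. Its mRNA signal was 10714 and 13807.

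lgg-1 encodes the ubiquitin-like protein that coats autophagosome membranes, the vesicles in which a cell digests its own contents. From diapause to developing animals, its mRNA signal went from 4144 to 857, 4.83-fold lower. Its RPF signal was 5038 and 588, 8.58-fold lower. ftt-2 and par-5 encode 14-3-3 adaptors, which bind phosphorylated proteins. ftt-2 was close to equal between the states, with an RPF signal of 8802 in diapause and 7605 in developing animals and mRNA of 6914 and 6738. par-5 had RPF signal of 4756 and 6416 (1.35-fold higher in developing animals) and mRNA of 4343 and 5962 (1.37-fold higher), although its RPF difference turned to lower under scaling to the summed signal.

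The 6 members grouped here as having no stated role all had lower signal in developing animals in both assays. Their medians were -2.04 log2 in mRNA and -2.13 in RPF. M01H9.3 had the second largest RPF difference of the list, with 8353 in diapause and 408 in developing animals, 20.5-fold lower, and mRNA 9.72-fold lower. M60.4 was 13.6-fold lower in RPF and 6.66-fold lower in mRNA. K07E3.4 was 6.76-fold lower in RPF and 5.74-fold lower in mRNA. C44B7.10 and C36A4.9, named acer-1 and acs-19 in WBcel235, were 2.84-fold and 1.87-fold lower in RPF, with mRNA 2.61-fold and 1.53-fold lower. Although its current name is like that of acs-2, C36A4.9 was not counted in the fatty acid group. T01D3.3 stood apart by its level, with RPF signal of 763 in diapause and 455 in developing animals. In diapause it lay at percentile 84.6 of well-expressed coding sequences by RPF signal, and the other 33 members above percentile 98. In developing animals 14 members were above percentile 98.

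**Figure D3:**
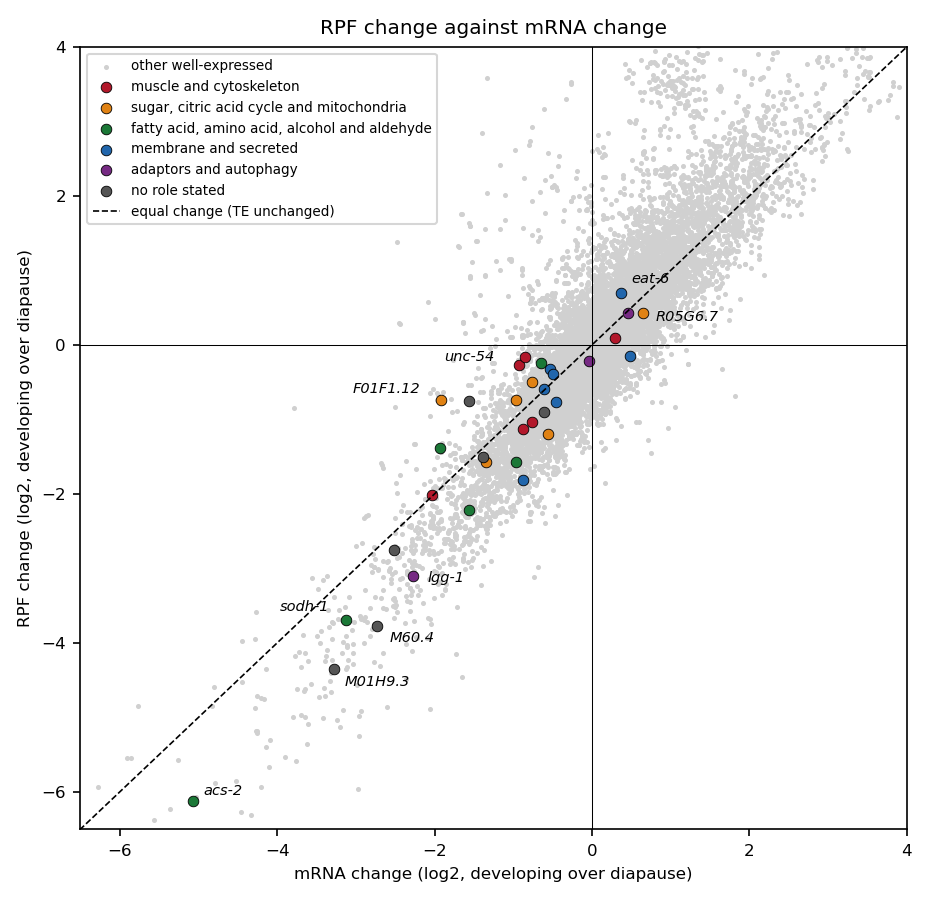
Log2 change in RPF signal against log2 change in mRNA signal (developing over diapause) for the 34 identifiers, coloured by functional group, and for the other well-expressed coding sequences in grey, of which those beyond the axis limits are not drawn. Points under the dashed line had lower TE in developing animals, as for acs-2, M01H9.3 and lgg-1, and F01F1.12 lies farthest above it.

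Changes in the 2 assays ran together over the members. Pearson's r was 0.93 and Spearman's rho 0.86 over 34 genes, and 0.90 and 0.84 over the 33 without acs-2. This is a description across genes, which are not replicates and share libraries of the same animals, and r was 0.89 over all well-expressed coding sequences. For most members with a large RPF difference, the mRNA difference made up the greater portion of the RPF difference on the log2 scale. It was 82.8% for acs-2, 84.7% for sodh-1, 75.3% for M01H9.3, 73.3% for lgg-1 and 72.5% for M60.4. For ttr-16 and F46E10.10 it was 48.3% and 46.3%, so mRNA and TE had nearly equal portions there.

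TE was lower in developing animals for 21 of 34 members and higher for 13, while 55.2% of well-expressed coding sequences were lower. Scaled to the summed signal of each state, which lowers every TE change by 0.30 on the log2 scale, TE was lower for 27 members and higher for 7, beside 77.1% lower among well-expressed coding sequences. As deposited, TE was over 1.5-fold lower for 9 members (background 12.6%) and over 1.5-fold higher for 4 (background 12.4%). Scaled to the summed signal, 12 were over 1.5-fold lower (background 31.0%). The median TE change was -0.21 log2 over members and -0.06 over all well-expressed coding sequences. The 9 were M01H9.3, acs-2, M60.4, ttr-16, lgg-1, hacd-1, F46E10.10, ost-1 and gln-3, and apart from ost-1 each also had RPF signal over 2-fold lower. M01H9.3 had 1.79 RPF units per mRNA unit in diapause and 0.85 in developing animals, 2.11-fold lower. acs-2 had 0.926 and 0.447, 2.07-fold lower, and M60.4 had 1.15 and 0.559, 2.05-fold lower. lgg-1 had 1.22 and 0.685, 1.77-fold lower.

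The 4 with TE over 1.5-fold higher in developing animals were F01F1.12, T01D3.3, mlc-3 and unc-54. F01F1.12 had 0.418 RPF units per mRNA unit in diapause and 0.952 in developing animals, a log2 change of 1.19. unc-54 had 0.603 and 0.942, and mlc-3 had 0.529 and 0.852. In all 4 the mRNA signal was lower in developing animals, so the RPF difference was smaller than the mRNA difference. Over the whole list, 17 members had lower mRNA signal with lower TE (background 30.4%) and 12 had lower mRNA signal with higher TE (background 17.2%). Both backgrounds are shares of all well-expressed coding sequences, and lower mRNA signal was itself more frequent among members (29 of 34, background 47.6%). Of the 5763 well-expressed coding sequences with lower mRNA signal, 3680 had lower TE and 2083 higher TE. Lower TE was therefore no more frequent among the 29 members than among those. Scaled to the summed signal, the 2 member counts were 23 (background 46.6%, 5644 coding sequences) and 6 (background 9.15%, 1109 coding sequences). myo-3 and npa-1 were nearest to no TE change, at 0.02 log2 each as deposited and below 0 under scaling to summed signal.

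**Figure D4:**
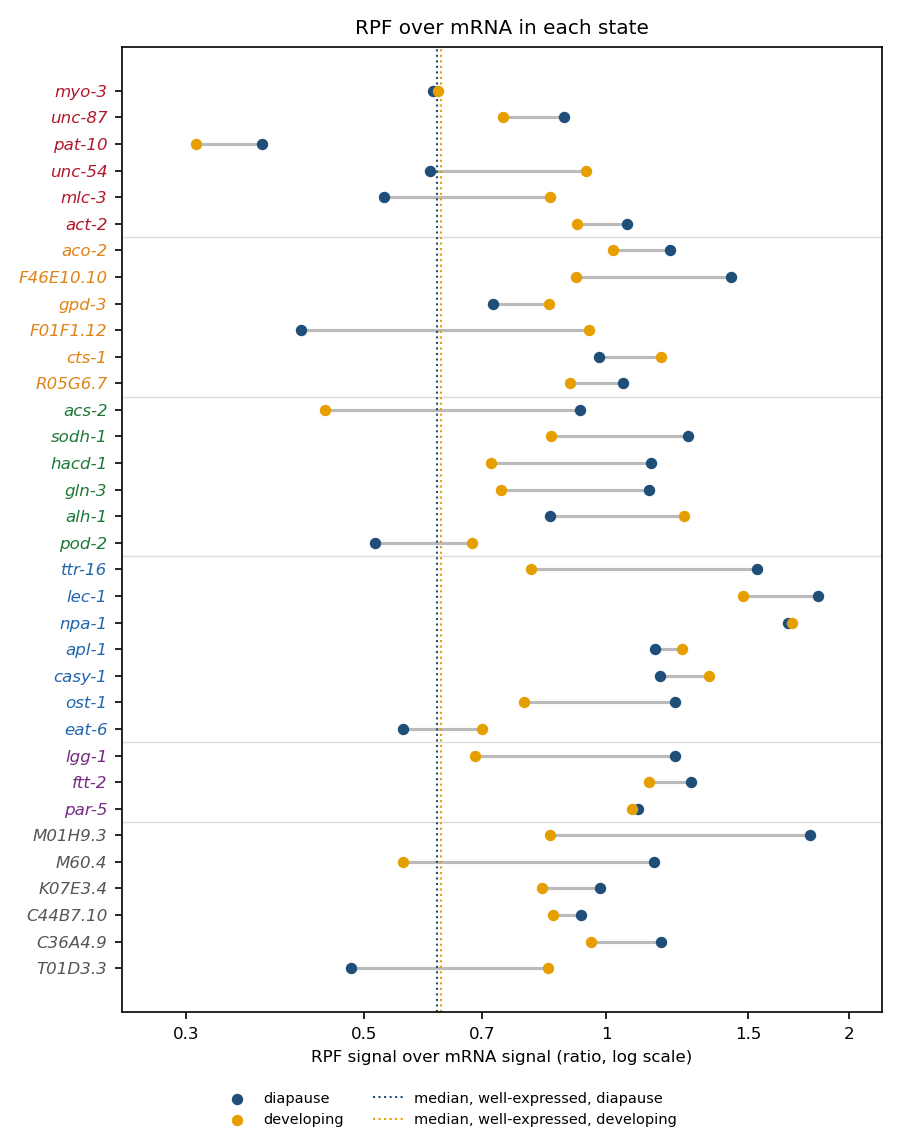
Ratio of RPF to mRNA mean signal (log axis) of the 34 identifiers in diapause and developing animals, with dotted lines at the medians of well-expressed coding sequences (0.616 and 0.623). In diapause 26 members lie above the dotted line for that state, and the other 8 are myo-3, pat-10, unc-54, mlc-3, F01F1.12, pod-2, eat-6 and T01D3.3.

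Within each state, most members had an RPF to mRNA ratio above the median of well-expressed coding sequences, 26 in diapause and 30 in developing animals. RPF abundance, the numerator of this ratio, chose the list, so these positions are in part set by the choice and are a description only. The ratio cancels coding length, though its scale depends on the separate normalization of the assays. Its median over members was 1.08 in diapause and 0.853 in developing animals, beside 0.616 and 0.623 over well-expressed coding sequences. The median member lay at percentile 86.0 in diapause and 76.4 in developing animals. In diapause 23 members were above percentile 75 and in developing animals 21 were. lec-1 was highest in diapause, with a ratio of 1.83 at percentile 99.2, and npa-1 in developing animals, with 1.70 at percentile 99.2. The 5 sarcomere genes had a median percentile of 48.5 in diapause and 65.1 in developing animals, where unc-54 was at 83.8 and mlc-3 at 76.4, and pat-10 was lowest of all members in both states, with ratios of 0.373 and 0.309.

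The spread between libraries could be read only from a deposited ratio, the variance between the 3 libraries of a state over the variance fitted for genes at that level. In mRNA data it was above 1 for 15 of 34 members in diapause and for none in developing animals, against 19.4% and 19.6% of well-expressed coding sequences. In RPF data it was above 1 for 5 members in diapause and 2 in developing animals, against 18.7% and 19.7%. Ratios above 3 occurred for M60.4 in RPF in diapause (7.07) and for myo-3 (3.40) and lgg-1 (3.18) in mRNA in diapause. Of well-expressed coding sequences, 3.44% in diapause RPF data and 4.0% in diapause mRNA data were above 3. Among members, these 3 genes had the largest spread between libraries relative to the fitted variance. Without these 3 genes, a choice made after seeing the data, 13 of the other 31 members were over 2-fold lower in RPF and 10 in mRNA. What underlay the spread in diapause mRNA data was not tested.

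**Figure D5:**
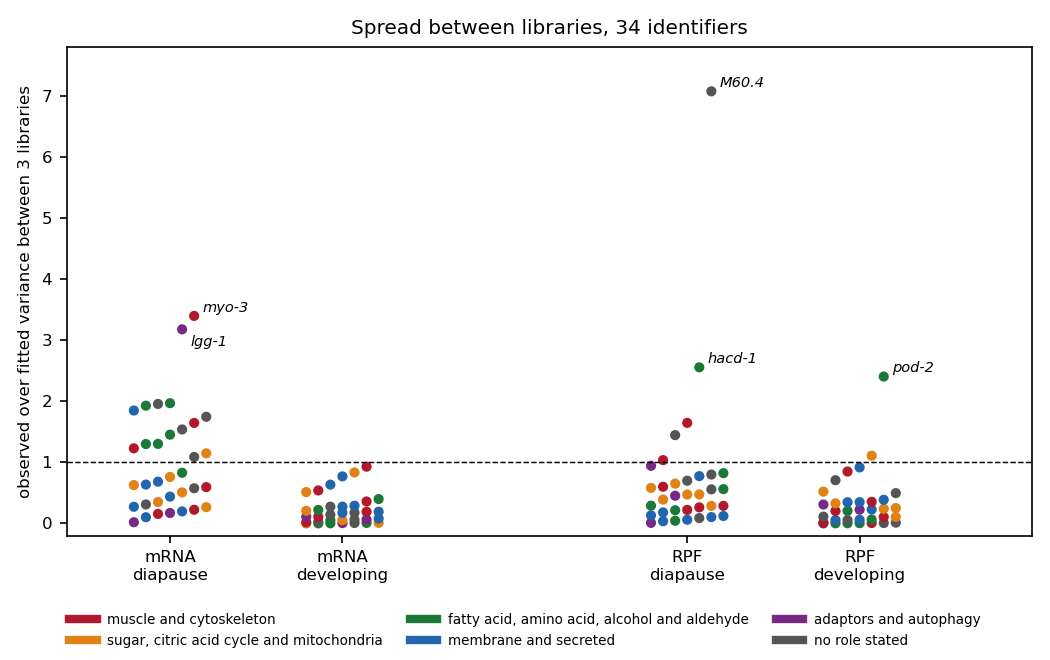
Observed over fitted variance between 3 libraries for the 34 identifiers in each assay and state, with a dashed line at 1 and points coloured by functional group. Genes above 2 are named, and M60.4 in diapause RPF data is highest at 7.07, while all members lie below 1 in developing mRNA data.

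The list chosen on the first component of the same data, 70 identifiers, differed between the states in the opposite direction. Its share of RPF signal was 2.08% in diapause and 7.65-fold higher in developing animals, and its share of mRNA signal was 8.57% and 15.7%. Its median change was 1.05 log2 in mRNA, 3.49 in RPF and 2.42 in TE, against -0.87, -0.84 and -0.21 for the second component list. The median RPF to mRNA ratio of the 70 lay at percentile 1.82 in diapause and 52.5 in developing animals. Both lists were chosen on RPF abundance, so the RPF difference between them is a description with no test.

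Many identifiers outside the list had a like pattern. Leaving T01D3.3 aside, the lowest RPF signal of a member in diapause was 4756, for par-5. At or above that level were 135 coding sequences outside the list. Of them, 56 had an RPF change at least as low as that of the median member, a limit for which no background share was counted. Over 2-fold lower were 53, beside 15.0% of all well-expressed coding sequences. The level limit is on diapause signal, which itself favours sequences that are lower in developing animals. With T01D3.3 as the lowest member, at 763, the first 2 counts were 1829 and 584. These are counts of identifiers, so isoforms of members can be among them. unc-87 and gln-3 each had an identifier outside the list within 1% of it in all 4 means.

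From the family of ttr-16, 35 identifiers were measured that the study listed as transthyretin-like and higher in diapause, ttr-16 included. That list was chosen on these samples, so the lower RPF signal of all 35 in developing animals is no independent evidence of direction. Its median RPF change was -1.64 log2, and ttr-16 at -1.81 lay close to it. In mRNA 28 of 35 were lower (background 47.6%), with a median of -0.88 log2, the value of ttr-16 itself. The mRNA came from the same animals as the RPF data, so the mRNA count is not independent of the choice either. TE was lower for 34 of 35 (background 55.2%), with a median of -0.96 log2 beside -0.94 for ttr-16. In diapause 34 of the 35 had an RPF to mRNA ratio above the median of well-expressed coding sequences, and in developing animals 20. RPF signal, the numerator of this ratio, chose the list, so these TE counts are in part set by the choice and are a description only. These 35 identifiers, which need not be the whole family, held 0.475% of RPF signal in diapause and 0.103% in developing animals. Of this, ttr-16 was 0.137% and 0.0287%.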

How the data were processed

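Libraries were poly(A) mRNA-seq and ribosome profiling of the same C. elegans batches, with 3 per state and assay, grouped by their labels. The authors trimmed reads, mapped them with Bowtie 0.12.7 to WormBase WS230 coding sequences with flanks, removed reads with several genomic mappings and let a read count for each isoform it matched. The deposited signal values are means per state of reads that the authors had divided by DESeq size factors, separately per assay. The deposited variance ratio is the variance between libraries over the variance the authors fitted with DESeq. Fold changes and p-values of the authors' own comparison are in the same tables and were not used. The state columns carry no names there. They were assigned because the study's table of named genes prints the same fold changes and its text gives their direction. No column of a single library was left unmatched (0).

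Here log2 changes are developing over diapause, and TE is RPF over mRNA signal. Fold limits were 2 for mRNA and RPF and 1.5 for TE. No test was run for lack of values per library, so results are descriptions. Promoter motifs had been planned and were not analysed here. The calculation was tested on simulated data. All members are named. Within each functional group the rule was to name those with the largest and smallest changes, and to give genes with a like pattern as a count. Members, lists and groups were chosen with earlier results of these data known. Identifiers were paired with names through the study's list, and all 34 names were found in the WBcel235 gene table, sodh-1 through its sequence name. unc-87 and gln-3 each had another identifier within 1% of it in all 4 means, which can be an isoform. Alternatives were other fold limits, scalings, a pseudocount of 1 and other minimum signals. The 6 tables of the other species were not used here. Python 3.11.15, numpy 2.4.6, pandas 2.3.3, scipy 1.17.1 and matplotlib 3.10.9 were used.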

Additional observations from a re-analysis of the deposited data

How the results depend on the processing

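No paired analysis was possible because the tables hold means over libraries, and for the same reason no replicate could be left out. Of 62 alternative values, 51 stayed within 1.5-fold for counts and shares, 0.1 on the log2 scale for medians and 5 points for percentiles. No median log2 change turned its sign, and counts, shares and percentiles have no sign to turn. Leaving out T01D3.3, or lgg-1, myo-3 and M60.4, both chosen after seeing the data, moved no count or median beyond these limits. With a fold limit of 1.5, 24 members were lower in mRNA, and with a limit of 2 for TE, 3 were lower. Scaling each state to its summed signal lowered all RPF changes by 0.44 and mRNA changes by 0.14 on the log2 scale. The median changes were then -1.28 in RPF, -1.01 in mRNA and -0.52 in TE, and 1 member was higher in RPF in developing animals. Scaling to the signal outside the first component list gave medians of -1.06 in RPF and -0.41 in TE. These scalings move the medians because the summed RPF signal itself was larger in developing animals. The counts by direction of mRNA and TE under scaling to the summed signal were added after seeing the data. TE directions depended on scaling most: gpd-3, casy-1, cts-1, npa-1, apl-1 and myo-3 turned to lower TE under scaling to the summed signal, npa-1, apl-1 and myo-3 also under the second scaling, and par-5 to higher TE when changes were centred on the median of well-expressed coding sequences. With a minimum signal of 200, which 6638 coding sequences passed, the median TE percentile in developing animals was 68.5. Without a minimum, 18847 entered. Depth limits these values in a way the means do not show, since reads per library were not used.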
